A study of Mus musculus with 8 samples.

Results

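The endocytic adaptors, dynamins and Rab GTPases of mouse spinal cord were examined in experimental autoimmune encephalomyelitis (EAE), to set Dab2 beside the machinery it works with. Members were the probe sets outside the array's control probe sets that carried 1 gene symbol in the array annotation, where that symbol named a Dab adaptor, a clathrin chain, a subunit of an AP adaptor complex, a dynamin, Eps15, an epsin, an intersectin, Picalm, a sorting nexin, an endophilin, a synaptojanin, Amph, Bin1 or a Rab. The rule found 128 probe sets of 91 genes among 12422 probe sets, of which 10833 had 1 symbol, 396 had several and 1193 had none. It took names and not values. It therefore also took in 9 genes whose symbols begin like those of the machinery, such as Dab2ip, Dnm1l and Synj2bp. Some of the 9 are partners of the machinery, such as Dab2ip, and others only share its letters. It found no probe set for Picalm or Amph. Of the 91 genes, 31 were measured by more than 1 probe set. Probe sets of a gene are numbered here from the brightest to the dimmest, as a name only, because levels of different probe sets cannot be compared.

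Clathrin-mediated endocytosis begins when adaptor proteins gather cargo receptors at the plasma membrane and recruit clathrin. Dab2 is such an adaptor: it binds the tails of lipoprotein receptors, the AP-2 complex, clathrin and Eps15. BAR-domain proteins and dynamin then cut the coated pit from the membrane, synaptojanin helps the coat to come off, and Rab GTPases and sorting nexins direct the vesicle and its cargo to early, recycling or late endosomes. In nervous tissue a neuronal set of these proteins (Dnm1, Sh3gl2, Amph) retrieves synaptic vesicles, while macrophages and microglia use related members for receptor uptake and phagocytosis.

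Spinal cord RNA was hybridized to 8 arrays of the Affymetrix MG U74Av2 design. EAE accounted for 5 of them and healthy controls for 3. All mice were SJL/J females of 8 to 12 weeks. EAE followed a flank injection of PLP peptide, and the mice were killed at an average disease grade of 2.5, between days 12 and 17. Controls received vehicle. The EAE mice had also been given murine serum albumin into a vein shortly before they were killed, whereas no such injection is described for the controls, so that disease and albumin cannot be told apart. Each array carried the spinal cord RNA of 2 animals, which makes 10 EAE and 6 control mice. The arrays were processed in 5 batches. Batches 1, 2 and 3 held 1 EAE and 1 control array each, and batches 4 and 5 held 1 EAE array each. The array number used below is the batch number. EAE arrays 1 to 5 came from days 14, 12 to 14, 17, 14 and 15.5. Each EAE array was a batch of its own among the EAE arrays, so that day and batch cannot be told apart.

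Values are log2 signals as deposited, so that a difference of 1 is a doubling. The change of each probe set was fitted in limma with batch as a term and p-values were adjusted over all 12422 probe sets with the Benjamini-Hochberg method, with 0.05 as the threshold. Because batches 4 and 5 held no control, EAE arrays 4 and 5 do not enter the fitted change, which is the mean of the 3 differences within batches. Their values are given beside the others. "Rose", "fell", "higher" and "lower" are used of a test only where the adjusted p passed.

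Array medians lay between 6.08 and 6.13, and an EAE array and a control array correlated at 0.931 to 0.951. The signal at the 3′ end of Gapdh stood above that at its 5′ end by 1.46 on EAE array 1 and 2.07 on EAE array 4, by 0.46 to 0.78 on the other EAE arrays and by 0.53 to 0.97 on the control arrays. For beta-actin the excess was 2.35 and 2.79 on EAE arrays 1 and 4, 1.11 to 1.83 on the other EAE arrays and 1.62 to 2.29 on the control arrays, so that EAE array 1 stood only just above the controls on that gene. Among cell type markers, 20 of 22 macrophage and microglia genes were higher in EAE and 0 were lower, with a median log2 change of 2.22 and a summed linear signal of 12196 to 18185 in EAE against 2337 to 2542 in control. Of 22 neuronal genes 10 were lower and 0 higher, with a median of -0.44 and a summed signal of 12417 to 14217 against 19131 to 19646. Of 9 myelin genes 3 were lower, of 12 T cell genes 5 were higher and 1 lower, of 12 astrocyte genes 1 was higher and 4 lower, and of 11 endothelial genes 4 were higher. The part of these shifts in the results below was not tested. In whole tissue, fewer cells of a type and less RNA per cell cannot be told apart.

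Of the 128 member probe sets, 9 were higher in EAE (Dab2 with 2 probe sets, Rab3d, Snx10, Rab5c, Snx5, Sh3glb1, Rab11a and Rab20), 27 were lower and 92 did not pass. Over all probe sets tested, 8.26% were higher and 11.4% lower. The members' share that was higher was 7.03% and the share that was lower 21.1%. With 1 probe set per gene, the brightest, 7 of 91 genes were higher and 22 lower, where 9.19% and 13.5% of all 8251 genes were. The median log2 change was -0.10 over the members and -0.05 over all probe sets. On 13 member probe sets all 5 EAE arrays lay above all 3 controls, and on 26 all lay below, where 10.9% and 15.1% of all probe sets did so. Dab2 was the only gene whose change exceeded 1 on the log2 scale, and the other 34 called probe sets lay between -0.73 and 0.59. The difference had the same sign in batches 1, 2 and 3 for each of the 36, as for all 2438 called probe sets of the array. The fitted change is the mean of those 3 differences, so their shared sign adds no support to the calls.

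These calls rest on few arrays. Without either array of batch 3, 3 of the 36 calls remained (Dab2 probe set 1, Rab33a and Synj2 probe set 1). Without batch 2, 10 remained, and without batch 1, 21 remained. The whole array lost calls too, from 1026 higher and 1412 lower. All probe sets called, old calls or not, were 521 higher and 225 lower without batch 3. They were 710 and 571 without batch 2, and 900 and 983 without batch 1. With no sharing of variance information between probe sets, 0 members passed in limma, and over all probe sets 1 was higher and 0 were lower. Of the 128, 7 had an unadjusted p under 0.05 in the direction of a rise and 24 in that of a fall. Over all 12422 probe sets these counts were 1081 and 1575. With the batch term left out, which brings in EAE arrays 4 and 5, 24 of the 36 remained. Without EAE arrays 1 and 4 as well, a setting chosen after seeing the data, 20 remained. Over all probe sets the former setting called 1062 higher and 1278 lower, and the latter 992 and 1045. The 16 lost in the latter were Ap4s1, Bin1, Dab2ip, Dnm1 probe set 2, Dnm1l, Rab11a probe set 2, Rab21, Rab2a, Rab33a, Rab34, Rab5c, Snx5, Snx10, Snx13, Snx14 and Synj2bp probe set 2. The sign of the change was the same for all 36 under each setting that tested them.

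**Figure D1:**
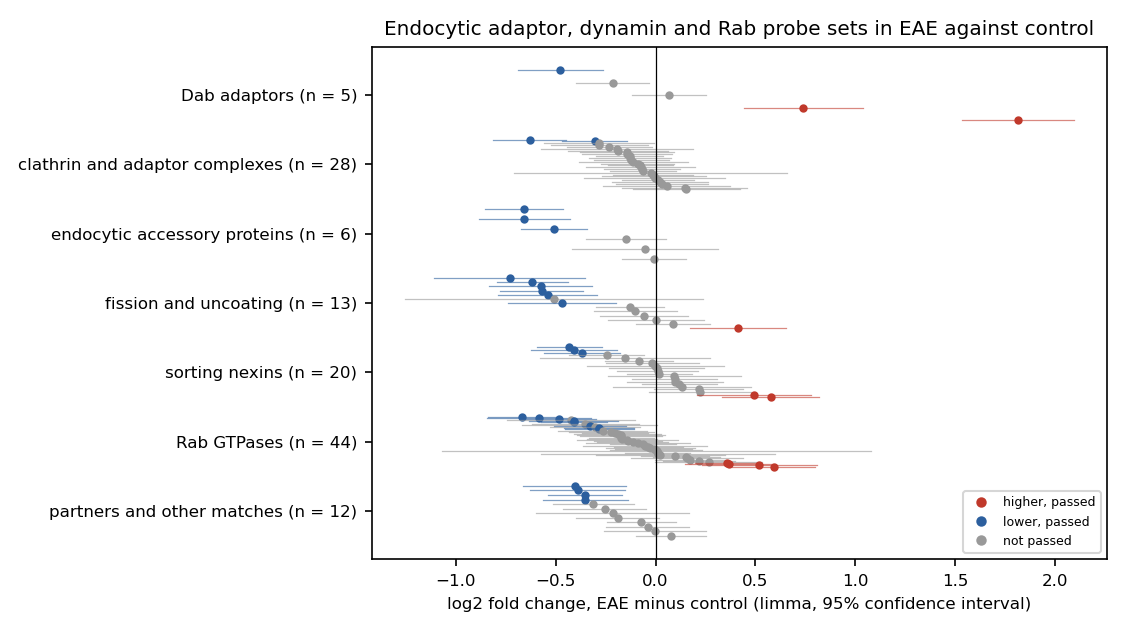
Log2 fold change of EAE over control (x axis, points, with 95% confidence intervals from limma) for each of the 128 member probe sets, sorted within 7 roles. Dab2 probe set 1 stands alone at 1.81, and 27 of the 36 that passed lie left of 0.

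Dab2 was the most changed member, and its probe sets did not move alike. Probe set 1 read 8.31, 8.23, 7.84, 8.55 and 8.14 on EAE arrays 1 to 5 and 6.36, 6.27 and 6.31 on control arrays 1 to 3. Every EAE array stood far above every control array, with arrays 1 and 4, those with the largest Gapdh 3′ excess, the highest. The group means were 8.22 ± 0.26 (SD, n = 5) and 6.32 ± 0.05 (SD, n = 3), and the fitted change was 1.81 ± 0.11 (SE), a 3.52-fold rise with an adjusted p of 0.000956. Within batches 1, 2 and 3 the difference was 1.95, 1.96 and 1.53. The exact two-sided permutation test over all 56 regroupings of the arrays gave p = 0.0179, the smallest it can give here. The study picked Dab2 for its rise on these same arrays and for its possible expression in glia. Tests of Dab2 on these values are therefore no independent evidence of that rise. Without EAE arrays 1 and 4, and with the batch term left out, the change was 1.76. The macrophage and microglia markers were higher on the same arrays, as given above, and their part in the rise of Dab2 was not tested.

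Dab2 probe set 2 read 7.35, 6.87, 6.95, 7.53 and 6.97 in EAE and 6.30, 6.35 and 6.29 in control. The groups again did not overlap, and arrays 1 and 4 were again highest. Its change was 0.74 ± 0.12 (adjusted p = 0.0151), and without either array of batch 3 it was 0.78 with an adjusted p of 0.0900. Probe set 3 read 6.44 to 6.63 in EAE and 6.27 to 6.58 in control. Those ranges overlapped, and a change of 0.07 did not pass (95% interval -0.12 to 0.25, adjusted p = 0.600). Probe set 1 has the suffix _s_at, which marks probes that may match several transcripts, whereas probe sets 2 and 3 have the plain suffix _at. Which transcripts each probe set detects is not given in the sources used here.

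RefSeq lists 2 separate start sites for Dab2, and the 250 bases before each are shown for the gene that changed most. Both lie on the + strand of GRCm38.p6, at chr15:6299539-6299788 and chr15:6386498-6386747. Window 1 has a GC content of 36.8% and 2 CpG, and window 2 has 60% and 17. Neither holds GAGGAAG (a form of ETS site) or GAAA followed by any 2 bases and another GAAA (an interferon-stimulated response element) on either strand. TGACGTCA (a cyclic AMP response element) and TCACGTGA (a lysosomal gene element) are absent too. Only these exact letters were searched, and other forms of each site, such as shorter ETS letters, were not counted. Over all 32851 windows of this length 10.6%, 2.98%, 1.55% and 0.785% hold these letters. The sequences are printed 5′ to 3′.
Dab2 window 1: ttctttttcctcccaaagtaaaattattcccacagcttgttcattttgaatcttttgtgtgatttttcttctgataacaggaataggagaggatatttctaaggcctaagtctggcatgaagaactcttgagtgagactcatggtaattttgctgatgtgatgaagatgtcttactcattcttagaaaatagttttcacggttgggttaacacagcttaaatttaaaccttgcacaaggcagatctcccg
Dab2 window 2: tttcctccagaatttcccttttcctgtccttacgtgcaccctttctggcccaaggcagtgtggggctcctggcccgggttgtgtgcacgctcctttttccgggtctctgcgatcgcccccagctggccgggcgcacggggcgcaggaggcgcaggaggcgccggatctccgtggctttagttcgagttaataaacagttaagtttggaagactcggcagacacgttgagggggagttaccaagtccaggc

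Dab1, the neuronal relative of Dab2 that relays reelin signals, moved the other way. Its probe set 1, also marked _s_at, read 5.98, 5.71, 5.93, 5.62 and 5.57 in EAE and 6.46, 6.34 and 6.26 in control. All EAE arrays lay below all controls, and the change was -0.48 ± 0.08 (adjusted p = 0.0197; without either array of batch 3, 0.0634). Probe set 2, a dim one, changed by -0.21 with an adjusted p of 0.105. Dab2ip, a Ras GTPase-activating protein that binds Dab2, fell by 0.39 on the log2 scale, from 6.58, 6.95 and 6.70 in control to between 6.23 and 6.56 in EAE.

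When each member's change was taken from that of Dab2 probe set 1, the difference was above 0 for 127 of 127 member probe sets, and on all 127 every EAE array lay above every control array in this difference, as on 97.3% of all other probe sets of the array. Its size ran from 1.07 (Dab2 probe set 2) and 1.22 (Rab3d) to 2.54 (Sh3gl2). For direct partners it was 2.05 against Cltc, 2.01 against Ap2m1 probe set 1 and 2.32 against Eps15 probe set 1. The test of the difference passed for all 127 with shared variances, where 97.9% of all other probe sets on the array passed it in this direction and 1.1% in the opposite one. Because each difference holds the same Dab2 values, limma shrank their variances to a single one and these p-values are too small. Without that sharing 125 of 127 passed, against 94.6% of all other probe sets, and Rab7 probe set 2 and Bin1 probe set 2 did not (highest adjusted p = 0.143). These shares are close to the background and say little about the members. On the whole array 137 probe sets, 0 of them members, had a change above that of Dab2 by this test.

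**Figure D2:**
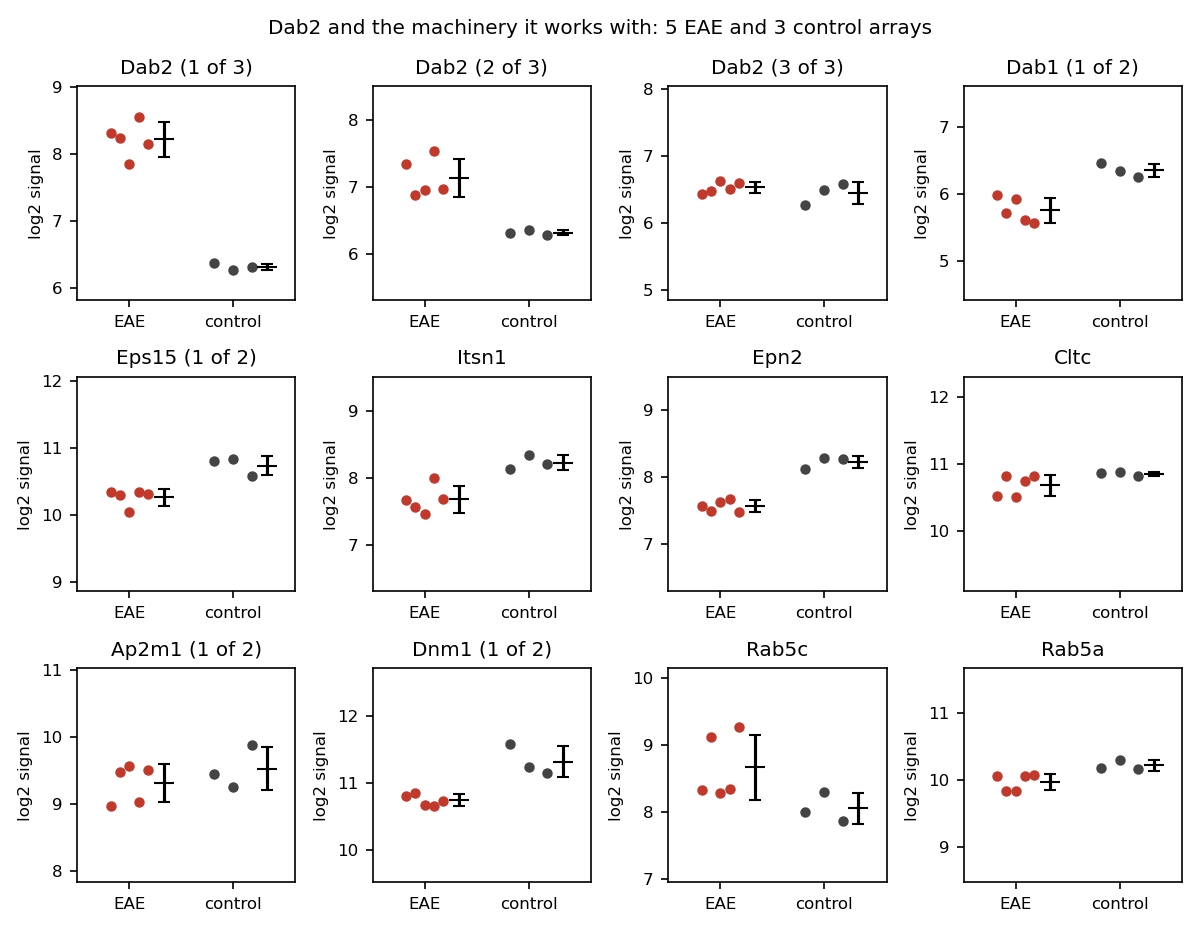
Log2 signal (y axis) of Dab2 and 9 other members' probe sets on the 5 EAE arrays (red) and 3 control arrays (grey), with bars for the mean and SD. Panels span the same number of log2 units, and Dab2 probe set 1 shows the widest gap (8.22 against 6.32). Cltc, Ap2m1 probe set 1, Rab5c and Dab2 probe set 3 overlap between the groups.

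Clathrin itself and the AP complexes, which join clathrin to membranes, mostly did not pass. Of 28 probe sets in this group 0 were higher and 2 (7.14%) lower, where 8.26% and 11.4% of all probe sets were. The median change was -0.08, and the 26 that did not pass lay between -0.28 and 0.15. Cltc, the clathrin heavy chain, read 10.52, 10.82, 10.51, 10.74 and 10.81 in EAE and 10.85, 10.87 and 10.81 in control. The highest EAE array reached past the lowest control, and the change of -0.23 had a 95% interval of -0.45 to -0.02 and an adjusted p of 0.128. The light chain Cltb changed by -0.28 (adjusted p = 0.141), and so did Ap3m1, a subunit of the AP-3 complex of lysosome-related traffic (adjusted p = 0.108).

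Ap2m1 encodes the AP-2 subunit that reads tyrosine sorting signals, and its probe sets were read differently. Probe set 1 lay between 8.97 and 9.57 in EAE and between 9.25 and 9.88 in control, with a change of -0.19 that did not pass (adjusted p = 0.455). Probe set 2, whose suffix _r_at marks probes picked under relaxed rules, was lower by -0.30 (adjusted p = 0.0318). Ap4s1, the small subunit of AP-4, which works at the trans-Golgi network without clathrin, fell furthest in this group. Its values were 7.78, 8.10, 7.74, 7.82 and 8.23 in EAE and 8.46, 8.62 and 8.43 in control. The groups did not overlap, and the change was -0.63 ± 0.07 (adjusted p = 0.00630, and 0.0579 without either array of batch 3).

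Of the accessory proteins that build and curve the coated pit, 3 of 6 probe sets fell and 0 rose. Over all probe sets of the array 11.4% fell and 8.26% rose. Epn2, an epsin that inserts into and bends the membrane, read 7.56, 7.49, 7.63, 7.67 and 7.47 in EAE and 8.11, 8.28 and 8.27 in control. EAE and control values were tightly bunched and far apart, and the change was -0.66 ± 0.08, or 1.58-fold lower (adjusted p = 0.00661). Its relative Epn1 was at 10.07 to 10.29 in EAE and 10.07 to 10.26 in control, with a change of -0.01 (95% interval -0.17 to 0.15).

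Itsn1, the intersectin scaffold that links Eps15 to dynamin, read 7.68, 7.58, 7.47, 8.01 and 7.69 in EAE against 8.14, 8.35 and 8.21. EAE array 4 came closest to the controls but stayed below them, and the change was -0.66 ± 0.09 (adjusted p = 0.00998). Eps15, an AP-2-binding scaffold and a partner of Dab2, had 10.33, 10.29, 10.04, 10.33 and 10.31 on probe set 1 in EAE and 10.79, 10.82 and 10.57 in control. All EAE arrays lay below the controls, array 3 furthest, and the change was -0.51 ± 0.06 (adjusted p = 0.00846). Eps15 probe set 2 changed by -0.05 (adjusted p = 0.850) and the related Eps15l1 by -0.15 (adjusted p = 0.274). Without either array of batch 3 the adjusted p was 0.0581 for Epn2, 0.0797 for Itsn1 and 0.0664 for Eps15.

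Among the proteins of fission and uncoating, 6 of 13 probe sets fell (46.2%) and 1 rose (7.69%), where 11.4% and 8.26% of all did. The median change was -0.47, and the 6 that did not pass lay between -0.51 and 0.09. Dnm1, the dynamin of neurons, fell on both of its probe sets. Probe set 1 read 10.81, 10.85, 10.67, 10.65 and 10.73 in EAE and 11.58, 11.24 and 11.15 in control. The groups did not overlap, and the changes were -0.54 ± 0.10 on probe set 1 (adjusted p = 0.0211) and -0.47 ± 0.10 on probe set 2 (adjusted p = 0.0385). It was the only gene of the 31 with several probe sets for which all passed in 1 direction. The ubiquitous Dnm2 changed by 0.09 (95% interval -0.10 to 0.27) and -0.10 (95% interval -0.31 to 0.11), neither passing.

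Endophilins sense and bend membranes and bring synaptojanin to the pit. Sh3gl2, the endophilin of synapses, had the lowest change of any member, with 5.86, 6.19, 6.39, 6.17 and 6.09 in EAE and 7.00, 6.63 and 7.00 in control. Groups were apart, and the fall was -0.73 ± 0.15, 1.66-fold lower (adjusted p = 0.0288). Sh3gl3 fell by 0.57 on the log2 scale (8.15, 8.01, 7.95, 8.13 and 8.22 against 8.47, 8.71 and 8.65, adjusted p = 0.0203). Sh3glb1, an endophilin B tied to autophagy and apoptosis, was the exception: its probe set 1 rose from 6.36, 6.39 and 6.27 to 7.00, 6.67, 6.60, 6.99 and 6.77. EAE arrays 1 and 4 were again the highest, the change was 0.42 ± 0.09 (adjusted p = 0.0389), and its probe set 2 changed by -0.06 (adjusted p = 0.712).

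Synj2, a phosphatase of membrane phosphoinositides, read 5.98, 5.92, 6.08, 6.33 and 6.21 on probe set 1 in EAE and 6.55, 6.64 and 6.63 in control. This was a clear gap, with a change of -0.62 ± 0.07 (adjusted p = 0.00630, and 0.0485 without either array of batch 3). Its dim probe set 2 changed by -0.13 (adjusted p = 0.265). Bin1, or amphiphysin 2, which curves membranes and is made in muscle and brain, read 9.07, 9.01, 9.41, 9.42 and 8.55 on probe set 1 in EAE and 9.50, 9.73 and 9.97 in control. EAE array 5 was the lowest and arrays 3 and 4 came near the lowest control, with a change of -0.57 ± 0.08 (adjusted p = 0.0113) that did not pass with the batch term left out (adjusted p = 0.0580). Bin1 probe set 2 ranged widely and did not pass (change -0.51, 95% interval -1.25 to 0.24). Without either array of batch 3 the adjusted p was 0.104 and 0.169 for the Dnm1 probe sets, 0.126 for Sh3gl2, 0.122 for Sh3gl3, 0.137 for Sh3glb1 and 0.0803 for Bin1. Neuronal markers fell on these arrays as given above, and their part in the falls of Dnm1 and Sh3gl2 was not tested.

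**Figure D3:**
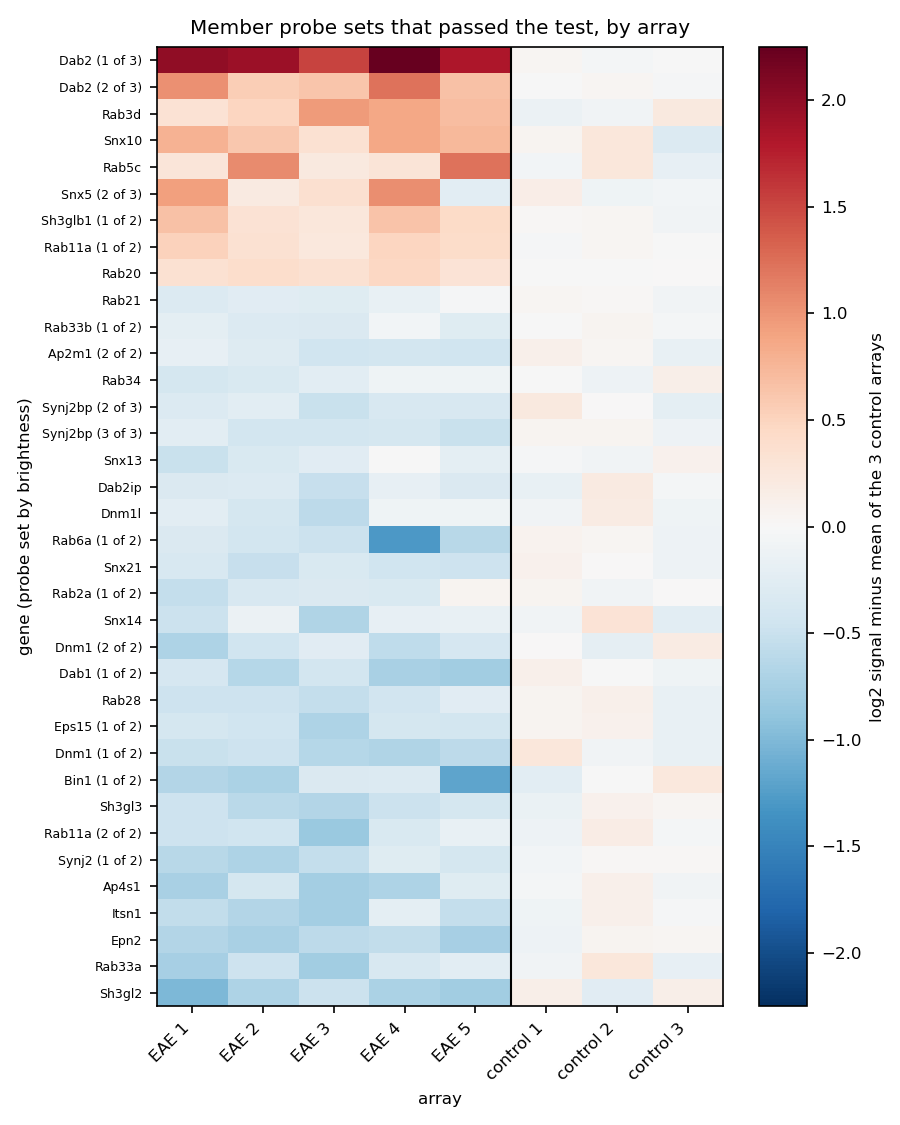
Heat map of the 36 member probe sets that passed, with arrays as columns (5 EAE, then 3 control) and colour for the log2 signal minus the mean of the 3 control arrays. Dab2 probe set 1 is 1.5 or more above the control mean on each EAE array, and single arrays stand out for Rab5c (EAE 2 and 5), Rab6a (EAE 4) and Bin1 (EAE 5).

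Sorting nexins bind endosomal phosphoinositides and tubulate or sort endosomes. Of their 20 probe sets 2 rose (10%) and 3 fell (15%), near the 8.26% and 11.4% of all probe sets. The median change was 0.01, and the 15 that did not pass lay between -0.24 and 0.22. Snx10, known from endosomes and osteoclasts, read 9.65, 9.46, 9.21, 9.73 and 9.60 in EAE and 8.92, 9.11 and 8.55 in control. The groups were separate, and the change was 0.58 ± 0.09, 1.49-fold (adjusted p = 0.0170, and 0.110 without either array of batch 3). EAE arrays 1 and 4 were the highest here too, and without them and the batch term the change was 0.56 (adjusted p = 0.0587). Snx5, a partner of the retromer, rose on probe set 2 only, by 0.49 (adjusted p = 0.0390), with 7.23, 6.50, 6.66, 7.35 and 6.07 in EAE and 6.46, 6.21 and 6.24 in control. EAE array 5 lay below every control there and arrays 1 and 4 lay highest, and without those 2 arrays and the batch term the change was 0.11 (adjusted p = 0.714). Snx5 probe sets 1 and 3 changed by -0.15 and -0.08 and did not pass.

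The 3 nexins that fell were Snx14, Snx21 and Snx13. Snx14, which with Snx13 belongs to the nexins that carry an RGS domain, read 7.30, 7.64, 7.10, 7.59 and 7.62 in EAE and 7.70, 8.08 and 7.54 in control. The groups overlapped, although EAE arrays 1, 2 and 3 each lay below the control of their own batch. The change of -0.43 ± 0.06 (adjusted p = 0.0125) did not pass with the batch term left out (adjusted p = 0.201). Snx21 changed by -0.41 and Snx13 by -0.37, and Snx13, whose groups also overlapped, did not pass with the batch term left out or as a random block. Snx3, which serves retromer recycling, and Snx12 had the widest changes among those that did not pass, at -0.24 (adjusted p = 0.0825) and 0.22 (adjusted p = 0.200).

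Of the member genes 82 have a RefSeq promoter window, and their windows had a median GC content of 62% and 17 CpG, against 52.4% and 6 over all windows. The exact ETS letters searched above were found in 8 of the 82 genes (9.76%, against 12% of all 27025 genes with a window). Other forms of ETS site were not counted. The cyclic AMP element was found in 5 (6.1% against 1.77%). The lysosomal element was in 2, Rab5a and Rab21 (2.44% against 0.907%), and the interferon element in 2, Rab10os and Snx10 (2.44% against 3.46%). Snx10 was the only gene among those that rose to hold the interferon element, 26 bases before its start site 3. That window is shown with the match in capitals, read on the opposite strand, at chr6:51524010-51524259 on the + strand of GRCm38.p6.
Snx10 window 3: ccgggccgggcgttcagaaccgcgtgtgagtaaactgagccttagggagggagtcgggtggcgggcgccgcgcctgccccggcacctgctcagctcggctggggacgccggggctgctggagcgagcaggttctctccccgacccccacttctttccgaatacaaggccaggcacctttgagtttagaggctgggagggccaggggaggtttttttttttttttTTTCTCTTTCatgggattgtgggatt

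Rab GTPases mark the membranes between which vesicles move. Of 44 probe sets, 4 rose (9.09%) and 8 fell (18.2%), where 8.26% and 11.4% of all probe sets did. The median change was -0.13, and the 32 that did not pass lay between -0.42 and 0.27. Rab3d, a Rab of secretory granules, read 6.00, 6.16, 6.63, 6.53 and 6.36 in EAE and 5.54, 5.59 and 5.89 in control. All EAE arrays exceeded the controls, and the change was 0.59 ± 0.08, 1.51-fold (adjusted p = 0.0103). Rab20, which acts in phagosome maturation, showed the least scatter of the Rabs that rose, at 6.96, 7.02, 6.97, 7.10 and 6.93 against 6.62, 6.62 and 6.63, a change of 0.36 ± 0.06 (adjusted p = 0.0208).

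The Rab5 proteins govern the early endosome that receives clathrin-coated vesicles. Rab5c read 8.33, 9.12, 8.29, 8.34 and 9.28 in EAE and 8.00, 8.31 and 7.87 in control. EAE arrays 2 and 5 stood well above the other 3, array 3 lay just under the highest control, and the change of 0.52 ± 0.11 (adjusted p = 0.0347) did not pass with the batch term left out (adjusted p = 0.143). Rab5a was at 9.83 to 10.06 in EAE and 10.16 to 10.30 in control, groups that did not overlap, with a change of -0.30 that did not pass (95% interval -0.53 to -0.08, adjusted p = 0.0758). Rab7 probe set 1, of the late endosome, changed by -0.01 and did not pass (95% interval -0.20 to 0.18).

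Rab11a, of the recycling endosome, was the only gene with probe sets that passed in opposite directions. Probe set 1 read 10.07, 9.89, 9.79, 10.03 and 9.95 in EAE and 9.51, 9.58 and 9.54 in control, all EAE arrays above, with a change of 0.37 ± 0.09 (adjusted p = 0.0426). Probe set 2 read 7.79, 7.81, 7.43, 7.92 and 8.09 in EAE and 8.14, 8.43 and 8.21 in control, all EAE arrays below, with a change of -0.58 ± 0.10 (adjusted p = 0.0199). No direction can be given for the gene. Probe set 2 did not pass with the batch term left out (adjusted p = 0.0549).

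Rab33a, tied to Golgi and secretory vesicle traffic, had the largest fall among the Rabs. It read 6.38, 6.66, 6.34, 6.77 and 6.90 in EAE and 7.05, 7.39 and 6.95 in control. EAE array 5 came close to the lowest control, each pair within a batch differed by -0.61 to -0.74, and the change was -0.67 ± 0.07 (adjusted p = 0.00437, and 0.0392 without either array of batch 3). Without EAE arrays 1 and 4 and the batch term it was -0.50 and did not pass (adjusted p = 0.0945). Rab28 fell by 0.49 on the log2 scale (7.95, 7.95, 7.87, 7.98 and 8.15 against 8.46, 8.52 and 8.24, adjusted p = 0.0136). Smaller falls, between -0.41 and -0.28, were found for Rab2a and Rab6a of the Golgi and Rab33b, each on probe set 1 only, and for Rab34 and the endosomal Rab21. Probe set 2 did not pass for Rab2a (-0.11, adjusted p = 0.342), Rab6a (-0.17, adjusted p = 0.242) or Rab33b (-0.22, adjusted p = 0.143). Rab33b probe set 1 has the suffix _f_at, which marks probes that may match a gene family. None of the 5 falls passed with the batch term left out or without either array of batch 3. Those of Rab2a, Rab6a and Rab34 did not pass with batch as a random block either, and the groups overlapped for the falls of Rab2a, Rab34 and Rab21. Rab6a probe set 1 read 9.01 on EAE array 4 and 9.67 to 9.97 on the other EAE arrays, against 10.18 to 10.38 in control. Rab24 and Rab9 had the widest changes of those that did not pass, at -0.42 (adjusted p = 0.0777) and -0.35 (adjusted p = 0.0812). Without either array of batch 3 the adjusted p was 0.0658 for Rab3d, 0.101 for Rab20, 0.134 for Rab5c, 0.118 and 0.102 for the Rab11a probe sets and 0.0571 for Rab28.

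Of the 12 probe sets of partners and other matches by name, 0 rose and 4 fell. Those that fell were Dab2ip, Dnm1l, which divides mitochondria, and 2 of the 3 of Synj2bp, a protein of the mitochondrial outer membrane. These 4 made up 33.3% of the group, where 11.4% of all probe sets fell. The changes of the 4 lay between -0.40 and -0.35, and Dnm1l did not pass with the batch term left out or as a random block. Rab11fip5, a Rab11 effector, was at -0.31 and did not pass (adjusted p = 0.0536), nor did Rab26os at -0.25 (adjusted p = 0.0951).

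Relatives within a family were then compared on the same array, as the difference of the log2 signals of their brightest probe sets. Of 16 pairs measured, 0 passed the exact two-sided permutation test after adjustment over the 16 (smallest adjusted p = 0.0714), and 6 had an unadjusted p under 0.05. The 4 pairs at the smallest possible p of 0.0179 were named after their values were seen. A pair at this floor can pass only if enough other pairs also have a small p, however large its own difference. Not passing is therefore no sign that a pair did not differ. Dab2 minus Dab1 was 1.91 to 2.93 in EAE and -0.10 to 0.05 in control, a difference between the groups of 2.49. For Dnm2 minus Dnm1 and for Sh3gl1 minus Sh3gl2 that difference was 0.70 each, and for Epn2 minus Epn1 it was -0.68. The groups did not overlap in 7 of the 16 pairs, these 4 and Sh3gl1 minus Sh3gl3, Rab5c minus Rab5a and Rab11a minus Rab11b. No share over other pairs of genes was counted, so this number has no background. Single probe sets, an unlike measure, did not overlap in 10.9% (EAE higher) and 15.1% (EAE lower). Rab11a was read here on probe set 1, and its probe set 2 passed in the opposite direction. Cltb minus Clta, the clathrin light chains, differed by 0.06 between the groups (exact p = 0.786).

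**Figure D4:**
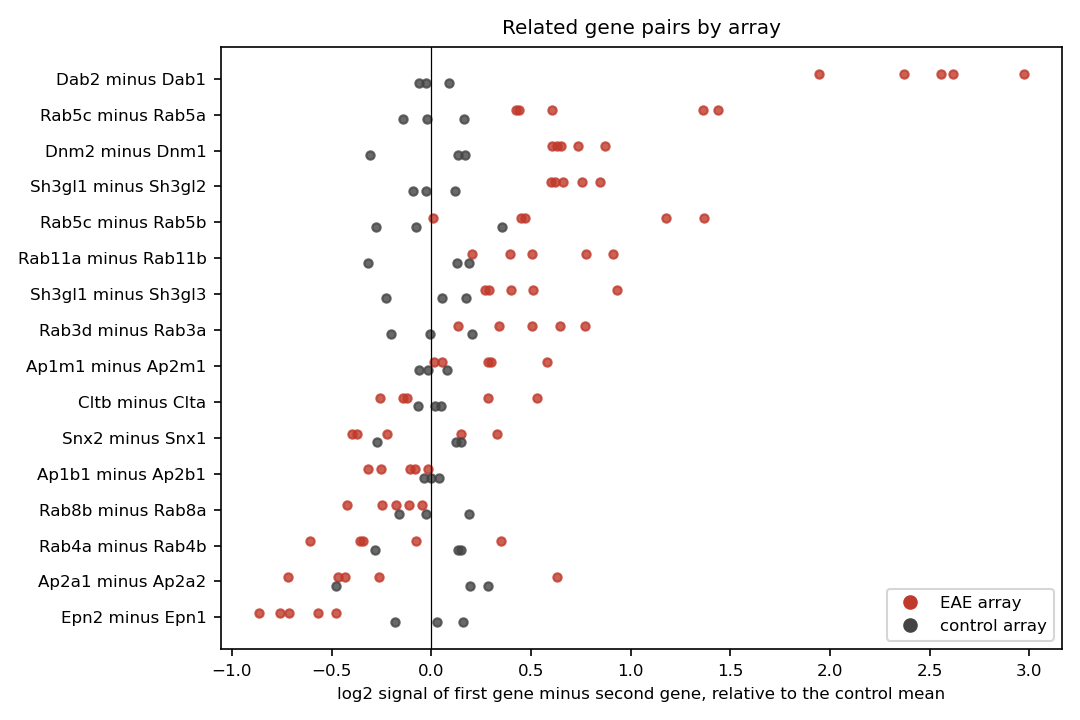
Difference in log2 signal between the 2 genes of each of 16 related pairs on every array (x axis), with the control mean of each pair set to 0; EAE arrays are red and control arrays grey. Dab2 minus Dab1 lies furthest right. In 7 of the 16 pairs the 5 EAE arrays do not overlap the 3 controls, and no share over other pairs was counted.

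Among 50 other genes of endocytosis and vesicle traffic that were measured of 74 listed, 1 rose (2%) and 10 fell (20%). Each gene was read on its brightest probe set only, although some, such as Vamp8, Rabep1 and Napb, have others. Read in the same way, 9.19% of all genes rose and 13.5% fell. Vamp8, a SNARE of endosome and lysosome fusion, rose from 7.47, 7.29 and 7.32 in control to 8.29, 8.26, 8.39, 8.08 and 8.15 in EAE. The groups were far apart and the change was 0.95 ± 0.08, 1.93-fold (adjusted p = 0.00250, and 0.0310 without either array of batch 3), on a probe set whose suffix _f_at marks probes that may match a gene family. Hip1r, which ties clathrin to actin, read 7.29, 7.37, 7.68, 7.17 and 6.94 in EAE and 8.05, 7.92 and 8.41 in control, a change of -0.68 ± 0.08 without overlap (adjusted p = 0.00593). Nsf, the ATPase that takes SNARE complexes apart, changed by -0.61, Rabep1, the Rab5 effector rabaptin-5, by -0.51, Necap1, of neuronal clathrin-coated vesicles, by -0.50, and Fcho1, an early organiser of coated pits, by -0.48. Napb, Napa, Pacsin1, Stam and Vps29 made up the other falls, at -0.46 to -0.29. Without either array of batch 3, 0 of the 10 falls passed in limma, and 11 genes of this list were lower at an unadjusted p under 0.05.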

How the data were processed

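Spinal cord RNA of SJL/J mice (5 EAE and 3 control arrays, each a pool of 2 separate animals) was measured on Affymetrix MG U74Av2 arrays. The log2 values were deposited by the authors, who normalized them with RMA in Partek; the versions are not given in the sources used here. No step can recover intensities below background, RMA compresses low folds, and the number of arrays limits precision. The 66 control probe sets were left out and 0 value columns were unused.

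The values were fitted in R 4.3.3 with limma 3.58.1 (treatment and batch, 2 residual and 3.05 prior degrees of freedom), with Benjamini-Hochberg adjustment. The fit was also run on simulated data with normal errors drawn from limma's own shared variances, which cannot check the sharing itself. Pairs of genes used exact permutation over 56 regroupings. Figures used matplotlib 3.10.9. The labels give the replicate number as the processing batch. The deviations of EAE and control arrays from their group means correlated at 0.30, -0.23 and 0.41 in batches 1, 2 and 3. Also tried were a fit that omits batch, batch as a random effect, no moderation, an intensity trend, median centring, further quantile normalization, brighter probe sets only and each array left out.

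Members and lists were chosen with earlier results of these data known, and 9 genes were moved to a role of their own after their symbols were seen. Named were the Dab2 probe sets, the 15 largest rises and falls that passed, the 2 widest changes per role that did not, and the 6 widest of the other list. Other genes were named after their values were seen. All 128 probe sets matched a RefSeq symbol through the Entrez number. Promoter windows are from RefSeq, GRCm38.p6.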

Additional observations from a re-analysis of the deposited data

Results flagged for a closer look

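Eps15 probe set 1 stood apart on EAE array 3, at 10.04, where the other 4 EAE arrays lay between 10.29 and 10.33. The gap was 0.842 of the whole range, above Dixon's 95% critical value of 0.71 for 5 arrays. It was the only one of 44 groups so tested, where chance gives about 1 in 20. Control array 3, its partner in the batch, had 10.57, the lowest value of the controls, and the batch 3 difference was -0.53. EAE array 3 was also that of the latest day, 17.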

How the results depend on the processing

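The batch, which is the replicate number, entered as a block. With no replicate block 8 members rose and 19 fell (member genes fell 14), and with a random replicate block 12 rose and 25 fell (member genes rose 11). Without moderation of the variances 1 of all probe sets rose and 0 fell (1081 and 1575 at an unadjusted p under 0.05), 0 members and 0 of the other endocytic genes passed (12 of the latter at an unadjusted p under 0.05), and Dab2 probe sets 1 and 2 kept changes of 1.81 and 0.74 with adjusted p of 0.134 and 0.220. Further quantile normalization left 5 falls in the other list. Leaving out 1 array gave 521 to 1026 rises and 225 to 1412 falls over all probe sets, 1 to 9 and 2 to 27 over member probe sets, 1 to 7 and 2 to 22 over member genes, 0 to 10 falls in the other list, and changes of 0.59 to 0.85 for Dab2 probe set 2, which lost its call without either array of batch 3 (0.78, adjusted p = 0.0900). Leaving out EAE array 4 or 5 changed nothing, by construction. Without EAE arrays 1 and 4 and the block, chosen after seeing the data, 17 members and 14 member genes fell and 2 of the other list rose. Eps15 probe set 2 (-0.05) ranged from -0.21 to 0.14 with 1 array left out, above 0 without either array of batch 1, and was 0.021 without EAE arrays 1 and 4. Of the 13 members in the dimmest 25% of probe sets, 0 were called.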
